A study of Homo sapiens and Homo sapiens
Mus musculus and Mus musculus with 9 samples.

Results

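Integrins and laminins were examined in the human reads of C4-2B cells, a human prostate cancer cell line, sequenced alone and in mixed co-culture with MC3T3-E1 cells, a mouse pre-osteoblast line. Every protein-coding gene whose symbol names an integrin alpha chain, an integrin beta chain (ITGB1 to ITGB8) or a laminin alpha, beta or gamma chain was taken, which gave 38 members of the 41713 genes in the deposited table (19939 protein-coding). They comprise 18 integrin alpha, 8 integrin beta, 5 laminin alpha, 4 laminin beta and 3 laminin gamma chains.

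The labels describe 3 libraries of C4-2B alone, 3 libraries of the co-culture (1 part C4-2B to 30 parts MC3T3-E1) and 3 libraries of MC3T3-E1 alone, all WT and grown in alpha-MEM with 10% FBS. The MC3T3-E1 libraries were not analysed here. Messenger RNA was sequenced as stranded paired reads of 50 bases, and because a co-culture library mixes human and mouse RNA, the authors took the human part out in 3 ways (Xenome, XenofilteR and Kallisto). The values used are the authors' mean per gene over the 6 libraries with C4-2B cells, in counts divided by size factors ("mean normalised count"), once for each pipeline. Such a mean combines both culture conditions, and which library behind it belongs to which condition is not given in the sources used here, so no level was compared between C4-2B alone and co-culture. The means carry no replicate error and no test was run on them.

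Integrins are cell surface receptors made of an alpha and a beta chain, and the pair decides which matrix protein is bound. Laminins are trimers of an alpha, a beta and a gamma chain that form the core of basement membranes. Laminin-binding integrins hold epithelial cells, those of the prostate gland included, on that membrane, and bound integrins signal through talin, kindlin and focal adhesion kinase.

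At the threshold for detection, a mean normalised count of at least 10 in at least 2 of the 3 pipelines, 28 of the 38 members (73.7%) were detected. The background was 66.9% of all 19939 protein-coding genes, so the members were detected about as often as coding genes in general. All 4 laminin beta chains and all 3 laminin gamma chains passed, with 3 of 5 laminin alpha chains, 12 of 18 integrin alpha chains and 6 of 8 integrin beta chains. The 10 members that did not pass were ITGA4, ITGA8, ITGA9, ITGAL, ITGAM, ITGAX, ITGB3, ITGB6, LAMA2 and LAMA4. C4-2B identity was checked on markers: 9 of 10 listed prostate cancer cell markers were in the table and all 9 were detected, from TMPRSS2 at 4603 to KLK3 (prostate-specific antigen) at 51038 mean normalised counts (median over pipelines). Of 10 osteoblast markers 4 were detected, with ALPL lowest at 0.103 and COL1A1 highest at 3384, and their part in the values of the members was not tested.

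To compare levels between genes, the median of the 3 means was divided by the length of the gene's exons, giving mean normalised counts per kilobase. Exon length counts every annotated exon once, so genes with long rarely used exons come out lower than they would on their main transcript. The members covered a range from 0.00886 per kilobase for ITGAX to 1664 for LAMC1, with a median over the 38 members of 9.28. LAMC1 stood above 92.5% of the detected coding genes and ITGB1 above 90.5%, whereas ITGB4 stood above 11.9% and ITGB8 above 0.0675%.

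**Figure D1:**
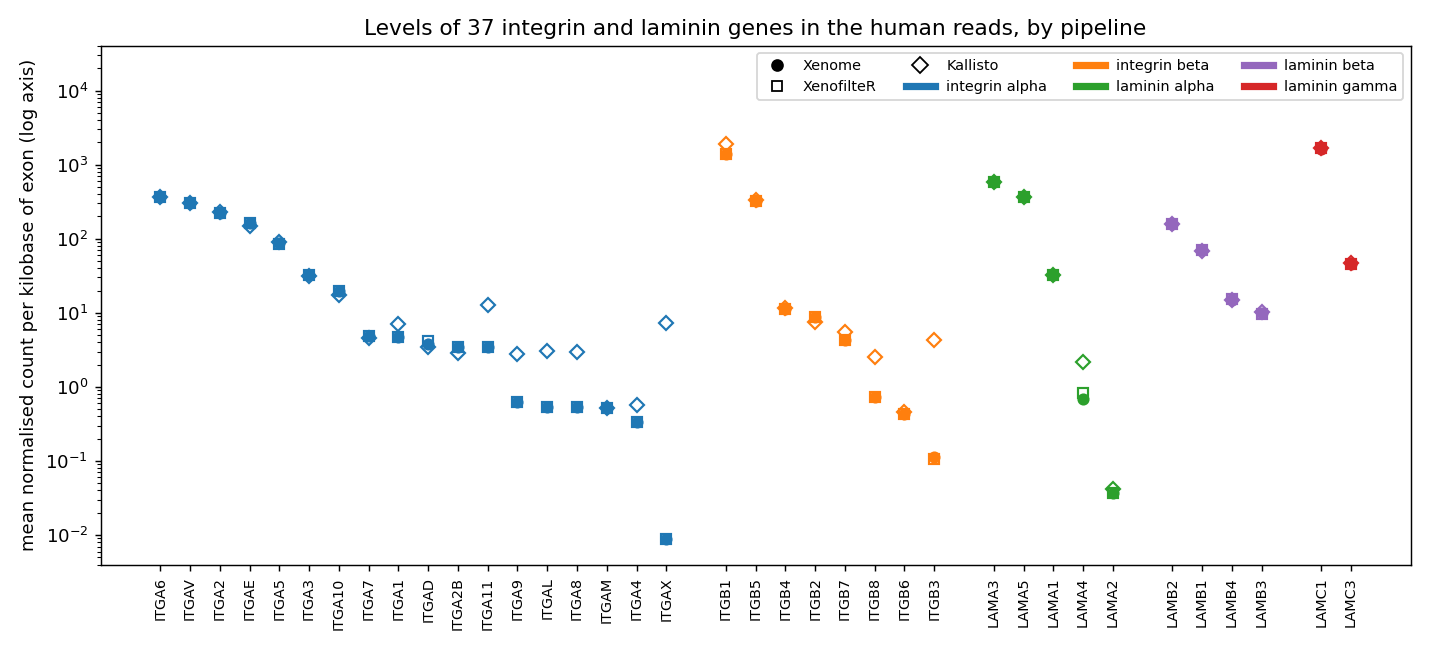
Mean normalised count per kilobase of exon (vertical, log axis) of 37 members, grouped by chain family and ordered by level, with a filled circle for Xenome, an open square for XenofilteR and an open diamond for Kallisto. The symbols coincide for most of the well expressed members, and the diamond lies apart for low members such as ITGAX (7.23 per kilobase with Kallisto) and ITGB3 (4.31).

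Among the integrin alpha chains, ITGA6, a laminin receptor chain, had the highest level at 368 per kilobase, which was 30.2% of the summed level of the 18 alpha chains. ITGAV, the chain of the receptors for vitronectin and other RGD proteins, followed with 299 (24.6%), and ITGA2, a collagen receptor chain, with 226 (18.5%). ITGAE, the alpha chain known from lymphocytes that bind E-cadherin, came next at 164 (13.4%). These 4 genes held most of the alpha chain signal, but their order depends on the length used. Per kilobase of canonical transcript ITGAV led with 822 (40.5% of the sum), before ITGA6 with 423 (20.8%), ITGAE with 284 and ITGA2 with 227.

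ITGA5, the fibronectin receptor chain, was lower at 86.4 per kilobase, and ITGA3, another laminin receptor chain, reached 32.3. ITGA10, a collagen receptor chain known from cartilage, was at 19.5. The detected alpha chains at the bottom of the order were ITGA7 at 4.85, ITGA1 at 4.71, ITGAD at 3.79, ITGA2B at 3.49 and ITGA11 at 3.42 per kilobase. ITGA7 is known from muscle, ITGA1 and ITGA11 are collagen receptor chains, ITGAD belongs to leukocytes and ITGA2B to platelets. With Kallisto alone ITGA11 was at 12.6 and ITGA1 at 7.08, which put both above ITGA7, so this end of the order is not the same in every pipeline.

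Among the beta chains, ITGB1, the common partner of most alpha chains, was at 1386 per kilobase and made up 79.7% of the summed level of the 8 chains. ITGB5, a partner of ITGAV, held 18.8% with 327 per kilobase (8.09% on the canonical length). The other detected beta chains were far lower. ITGB4, the hemidesmosome chain that pairs with ITGA6 only, was at 11.2, the leukocyte chain ITGB2 at 8.67, ITGB7 at 4.27 and ITGB8 at 0.735. Per kilobase of canonical transcript ITGB2 (22.5) stood above ITGB4 (12.8). The exons of ITGB1 sum to 14.6 kb and its canonical transcript to 3.74 kb, and per kilobase of that transcript ITGB1 would be at 5403 and stand above LAMC1 (1773). With Kallisto on its own ITGB1 also led per kilobase of exon, with 1919 against 1669 for LAMC1.

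The chains of known heterodimers were unequal. ITGA6 was 32.9-fold higher than ITGB4 per kilobase and at 0.266 times the level of ITGB1 (0.193 times with the Kallisto means, 0.0783 times per kilobase of canonical transcript). ITGAE was 38.3-fold higher (27.1-fold with the Kallisto means) than ITGB7, the beta chain with which it forms the E-cadherin receptor of lymphocytes. ITGAV and ITGB5 were nearly level, with a ratio of 0.916 per kilobase of exon, but 1.71 per kilobase of canonical transcript. On the canonical length ITGA6 was 33-fold higher than ITGB4 and ITGAE 42-fold higher than ITGB7.

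Among the laminin alpha chains, LAMA3, the chain of the epithelial laminin-332, was highest at 589 per kilobase and LAMA5, the alpha chain found in most adult basement membranes, was next at 366. They held 59.6% and 37% of the summed alpha level. LAMA1, the alpha chain of embryonic laminin-111, was at 32.4. LAMA2, the muscle chain, reached 0.0369.

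Of the laminin beta chains, LAMB2 was at 157 per kilobase, LAMB1 at 69.8, LAMB4 at 15 and LAMB3 at 9.89. The order of the first 2 turns on the length used, since LAMB1 is 1.21-fold higher than LAMB2 per kilobase of canonical transcript. LAMC1, the gamma chain of most laminins, accounted for 97.2% of the gamma chain level. LAMC3 was at 45.5 per kilobase. LAMA3 is known to assemble with LAMB3 in laminin-332, and the 2 chains were far apart here: LAMA3 was 59.6-fold higher than LAMB3 (57.3-fold with the Kallisto means).

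Several members are neighbours in the genome. ITGA1 (chr5:52787916-52959209) and ITGA2 (chr5:52989340-53094779) lie 30.1 kb apart, and ITGA1 was at 0.0208 times the level of ITGA2 (0.0358 times per kilobase of canonical transcript). LAMB1 and LAMB4 on chromosome 7 are separated by 20.4 kb and LAMB1 was 4.66-fold higher, or 12.8-fold per kilobase of canonical transcript. ITGAM, ITGAX and ITGAD, leukocyte chains that follow each other on chromosome 16, were all low, at 0.513, 0.00886 and 3.79, and ITGAL, 737 kb before ITGAM, was at 0.541. With Kallisto on its own ITGAX was at 7.23, above ITGAD (3.45) and ITGAM (0.514).

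Of 22 listed adaptors that tie integrins to the cytoskeleton and to signalling, 21 were detected, and of 12 laminin partners and other matrix genes 10 were, beside the background of 66.9% of coding genes. VCL (vinculin) was the highest adaptor at 1164 per kilobase, and LIMS2, at 0.9, was not detected. FN1 (fibronectin) was the highest matrix gene at 2344 per kilobase, and SPP1 (osteopontin), the lowest at 0.0901, was not detected.

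The pipelines read the same libraries and differ in how human reads are told from mouse reads and how reads are given to genes. The Kallisto mean was set against the Xenome mean, and the ratio was divided by its median over coding genes with a mean of at least 10 in both (1.02). Of the 28 members with such means, 3 (10.7%) had a scaled ratio of at least 2 and 0 had a ratio of at most 0.5. The background was 8.56% and 0.649% of 13243 coding genes. The members were therefore close to coding genes in general. Among them were ITGA11 with 3.59 and ITGB8 with 3.36.

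When a mean of at least 10 in either pipeline was enough, 9 of 34 members (26.5%) had a ratio of at least 2, against a background of 17.4%. The 6 members added in this way had a Xenome mean under 10 and could pass only through a high Kallisto mean. They were ITGAX with a scaled ratio of 798, ITGB3 with 36.7, ITGA8 with 5.51, ITGAL with 5.5, ITGA9 with 4.24 and LAMA4 with 3.11. Of 10 members with a Xenome mean under 10, 6 had a Kallisto mean of at least 10, and of all 4480 such coding genes 33.8% did.

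In mean normalised counts, ITGAX (chr16:31355134-31382997), a leukocyte chain, stood at 0.0627 with Xenome, 0.0627 with XenofilteR and 51.2 with Kallisto. ITGB3, the platelet and osteoclast chain that pairs with ITGAV, stood at 0.784, 0.72 and 29.4. ITGA11 stood at 37.2, 37.1 and 136. In each of these genes the 2 pipelines that count aligned reads were close together and Kallisto was apart.

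The low members with smaller gaps had Xenome and Kallisto means of 5.33 and 29.9 (ITGAL, the lymphocyte chain that pairs with ITGB2), 3.9 and 22 (ITGA8), 5.25 and 22.7 (ITGA9), 8.19 and 26 (LAMA4) and 11.1 and 38 (ITGB8). The difference between the means of these 5 genes was from 17.5 to 27 mean normalised counts. In ITGB1 the difference was 7764, the largest of any member, but its scaled ratio was 1.35. For ITGA1 the means were 87.2 and 131, a scaled ratio of 1.47. Between XenofilteR and Xenome, 0 of 28 members were past 2-fold in either direction, and the scaled ratio ran from 0.985 (ITGA3) to 1.1 (ITGAD).

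**Figure D2:**
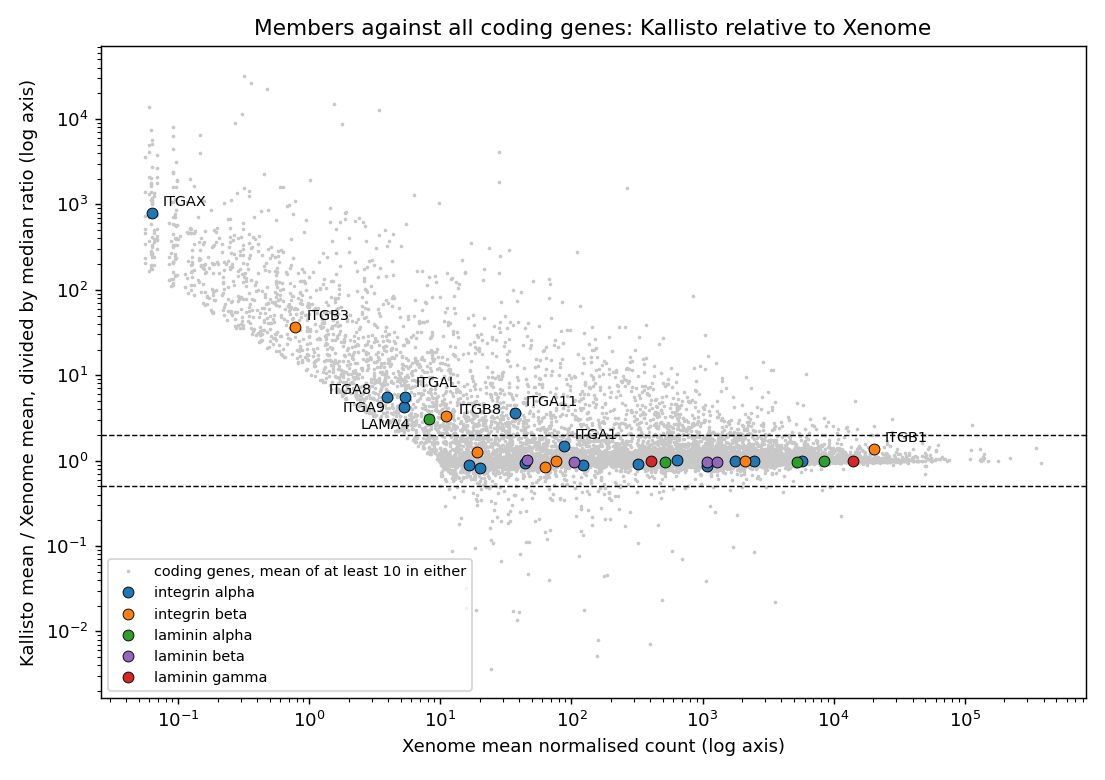
Scaled ratio of the Kallisto mean to the Xenome mean (vertical, log axis) against the Xenome mean normalised count (horizontal, log axis), with members coloured by chain family and all coding genes above 0 in both pipelines, with a mean of at least 10 in either, in grey. Dashed lines mark ratios of 2 and 0.5, and the 8 members drawn above the upper line all have a Xenome mean of at most 37.2, while among the members with higher means ITGA1 (1.47) and ITGB1 (1.35) have the highest ratios.

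Sequence shared with the mouse was measured as the share of a gene's words of 31 bases that also occur in mouse transcripts. It was 0.351% for the median member and 0.502% for the median coding gene. LAMC1 had the highest share among the members, 1.72%, and a scaled ratio of 0.989. ITGAX had 0.124%, ITGB3 0.425% and ITGA11 0.746%.

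The longest run of coding bases that a member shares with its mouse namesake was found for 37 members, since mouse transcripts named Lamb4 were 0 in the annotation used. The runs had a median of 42 bases, and in 10 of 37 members they were at least as long as a read of 50 bases, among them 2 of the 9 members that Kallisto gave at least 2-fold higher. The runs below are shown for ITGB3 and ITGAL, which have the widest gaps among those 9 with a run inside 1 exon, for LAMA4, which has the longest run of the 9, and for LAMC1, which has the highest share of mouse words. Capitals mark the run shared with mouse, and the small letters are the human bases on either side in the coding sequence, written 5′ to 3′ on the strand of the gene (GENCODE transcripts, GRCh38).
ITGB3: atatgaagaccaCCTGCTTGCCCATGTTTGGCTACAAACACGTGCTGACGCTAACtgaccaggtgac
ITGAL: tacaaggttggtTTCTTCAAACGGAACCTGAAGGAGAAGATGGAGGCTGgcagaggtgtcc
LAMA4: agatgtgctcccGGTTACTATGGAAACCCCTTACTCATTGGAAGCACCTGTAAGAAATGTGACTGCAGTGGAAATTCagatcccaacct
LAMC1: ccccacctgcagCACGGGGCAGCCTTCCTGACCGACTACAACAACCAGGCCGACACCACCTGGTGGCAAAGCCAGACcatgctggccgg

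The run of ITGB3 has 43 bases and lies in exon 5 (chr17:47286271-47286313, plus strand), and that of ITGAL has 37 bases in exon 31 (chr16:30521498-30521534, plus strand). The run of LAMA4 has 65 bases in exon 6 (chr6:112191776-112191840, minus strand). The run of LAMC1 also has 65 bases and lies in exon 1 (chr1:183024017-183024081, plus strand). In ITGAX, the member with the largest ratio, the longest run had 29 bases, which is shorter than the 31-base words.

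Overlap with other human genes was measured from exon coordinates. In ITGB3, 33.2% of exon bases are also exon of another protein-coding gene on the same strand (ENSG00000259753). ITGB3 was the only member of the 9 (11.1%) with 10% or more of its exon bases overlapped on the same strand. None of the other 25 members with a mean of at least 10 in either pipeline had so much. The background was 31.3% of 2554 coding genes at least 2-fold higher with Kallisto and 5.16% of 12276 other coding genes. ITGB6, with means under 10 and so not compared, had 16.7% (ENSG00000285155) and a scaled ratio of 1.04. ITGAX, ITGA8 and ITGA11 had 0 overlapping exon bases. In ITGB7 and ITGA4, 42.3% and 26.4% of exon bases are covered by genes on the opposite strand (ZNF740 and CERKL). The libraries are stranded, and whether the counting used the strand is not given in the sources used here. The processed copy ITGB1P1 holds 3.78% of the 31-base words of ITGB1. The share of such words found in any other human gene was 5.97% in ITGAX (2.19% in ITGAD), 12.9% in ITGAL and 39.1% in ITGB3. It was 2% in ITGA11 and 1.77% in ITGA8, which also had a ratio of at least 2. Among members with a lower ratio it was 36.2% in ITGB7 and 15.1% in ITGA1. The part of shared sequence and of overlap in the gaps between pipelines was not tested.

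**Figure D3:**
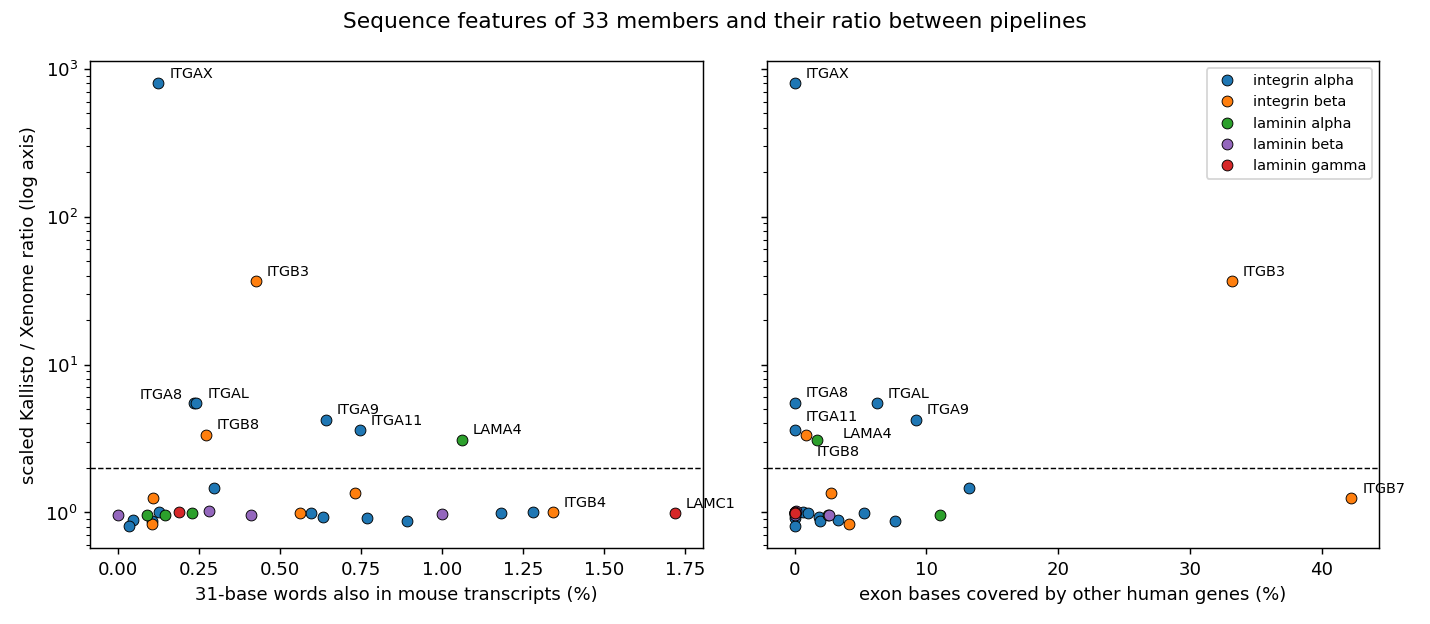
Scaled ratio of the Kallisto mean to the Xenome mean (vertical, log axis) of 33 members against the percent of their 31-base words found in mouse transcripts (left) and the percent of exon bases covered by other human genes (right), coloured by chain family. The dashed line marks a ratio of 2. LAMC1 has the highest mouse share and a ratio near 1, and ITGAX has the highest ratio with a mouse share of 0.124% and no overlapping exon bases.

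Whole reads behind the Xenome and XenofilteR means could be worked back for 26 of the 38 members, as every mean is a sum of whole reads divided by 6 size factors. The libraries are numbered 1 to 6 from the largest size factor (5.93) to the smallest (0.109). Libraries 1 to 3 were deep and libraries 4 to 6 shallow: assuming a like composition, their Xenome totals were about 251, 225, 206, 18.1, 6.14 and 4.61 M human reads. A read of library 1 adds 0.0281 to a mean and a read of library 6 adds 1.53. A low mean can therefore rest on very few reads of a shallow library. The normalised counts below are reads divided by the size factor, with exact 95% Poisson intervals that cover counting error only. Xenome and XenofilteR gave equal reads in 109 of 156 library values and differed by at most 7 reads. For members not solved in each pipeline alone, reads were searched only where the pipelines nearly agreed. These members include ITGA5, LAMA1 and LAMC3, which hold the differences of 7 reads. In such members the agreement is partly set by the search. Even so, 1 read weighs much in a shallow library. LAMA4 in library 5 was at 6.91 with Xenome and 13.8 with XenofilteR, and ITGAD in library 6 at 18.4 and 27.6. In bulk RNA, fewer cells of a kind and less RNA per cell cannot be told apart.

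Of the 26 members, 16 had a Xenome mean of at least 10, and in 13 of these (81.2%) at least 1 pair of libraries had intervals that did not overlap. The background was 67.8% of the 3903 coding genes with whole reads found among 4913 searched. Genes with levels far apart between libraries can be missing from these 3903, because the search started from equal levels. The 3 exceptions were ITGA2B, ITGAD and ITGB8. Relative to each gene's own mean, 8, 12, 12, 4, 7 and 5 of the 16 members lay above it in libraries 1 to 6 (50%, 75%, 75%, 25%, 43.8% and 31.2%). Over all 3903 genes the shares were 52.2%, 62%, 62.2%, 39.9%, 41.9% and 41.7%.

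ITGB4, the hemidesmosome chain, had 523, 599, 641, 25, 5 and 3 reads in libraries 1 to 6. Its normalised counts were 88.3 (80.9 to 96.2), 113 (104 to 122), 132 (122 to 142), 58.6 (37.9 to 86.5), 34.5 (11.2 to 80.6) and 27.6 (5.68 to 80.5). The 3 shallow libraries were lower than the 3 deep ones, and libraries 5 and 6 rested on few reads. LAMB4 had 882, 742, 640, 23, 12 and 8 reads, which is 149, 140, 132, 53.9, 82.9 and 73.5 in normalised counts. Its lowest value, in library 4 (34.2 to 80.9), did not overlap with those of libraries 1 to 3.

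LAMB3 had 255, 307, 356, 12, 4 and 5 reads, normalised to 43, 57.8, 73.2, 28.1, 27.6 and 45.9. ITGA7 had 354, 359, 288, 17, 3 and 2 reads, normalised to 59.7, 67.6, 59.2, 39.9, 20.7 and 18.4. Library 3 was high for LAMB3 and library 2 for ITGA7, and the intervals of the shallow libraries were wide in both genes. ITGA1 had 598, 523, 562, 27, 13 and 6 reads, with a highest normalised count of 116 in library 3 and a lowest of 55.1 in library 6.

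ITGA5, the fibronectin receptor chain, had the most reads among the solved members: 3406, 4213, 3621, 186, 88 and 73. Normalised counts were 575 (556 to 594), 793 (769 to 817), 745 (721 to 769), 436 (376 to 503), 608 (487 to 749) and 670 (526 to 843). The deep libraries differed among themselves, and library 4 was the lowest. LAMA1 had 2668, 2591, 2691, 258, 76 and 51 reads, normalised to 450, 488, 554, 605, 525 and 468. LAMC3 had 2143, 2173, 1785, 189, 70 and 40 reads, normalised to 362, 409, 367, 443, 483 and 367. The highest value of these last 2 genes was 1.34 times the lowest in each, yet the deep libraries have narrow intervals, and in LAMA1 that of library 1 (433 to 468) ended below that of library 3 (533 to 575).

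ITGA10 had 629, 610, 556, 58, 10 and 21 reads, normalised to 106, 115, 114, 136, 69.1 and 193. Its highest value was in library 6 (119 to 295) and its lowest in library 5 (33.1 to 127), so the 2 shallowest libraries stood at opposite ends, with intervals that overlap. The interval of library 6 lay above that of library 1 (98 to 115). ITGB2 had 242, 341, 236, 16, 18 and 7 reads, normalised to 40.8, 64.2, 48.5, 37.5, 124 and 64.3. Library 5 was highest (73.7 to 196), beyond the interval of each deep library. ITGA11 had 185, 175, 208, 23, 9 and 0 reads, normalised to 31.2, 32.9, 42.8, 53.9, 62.2 and 0. The interval of the count of 0 reaches 33.9 and ends below those of libraries 3 (37.2 to 49) and 4 (34.2 to 80.9).

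The remaining detected members had few reads in the shallow libraries. ITGA2B had 156, 125, 115, 7, 3 and 1 reads, and ITGAD had 126, 102, 75, 5, 2 and 2. ITGB7 had 136, 99, 137, 5, 2 and 2 reads. The 3 genes were seen in every library, at normalised counts from 9.18 to 28.2. ITGB8 had 68, 92, 70, 4, 2 and 0 reads. The deep libraries gave from 11.5 to 17.3 normalised counts, and the shallow ones could not show a difference of that size.

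**Figure D4:**
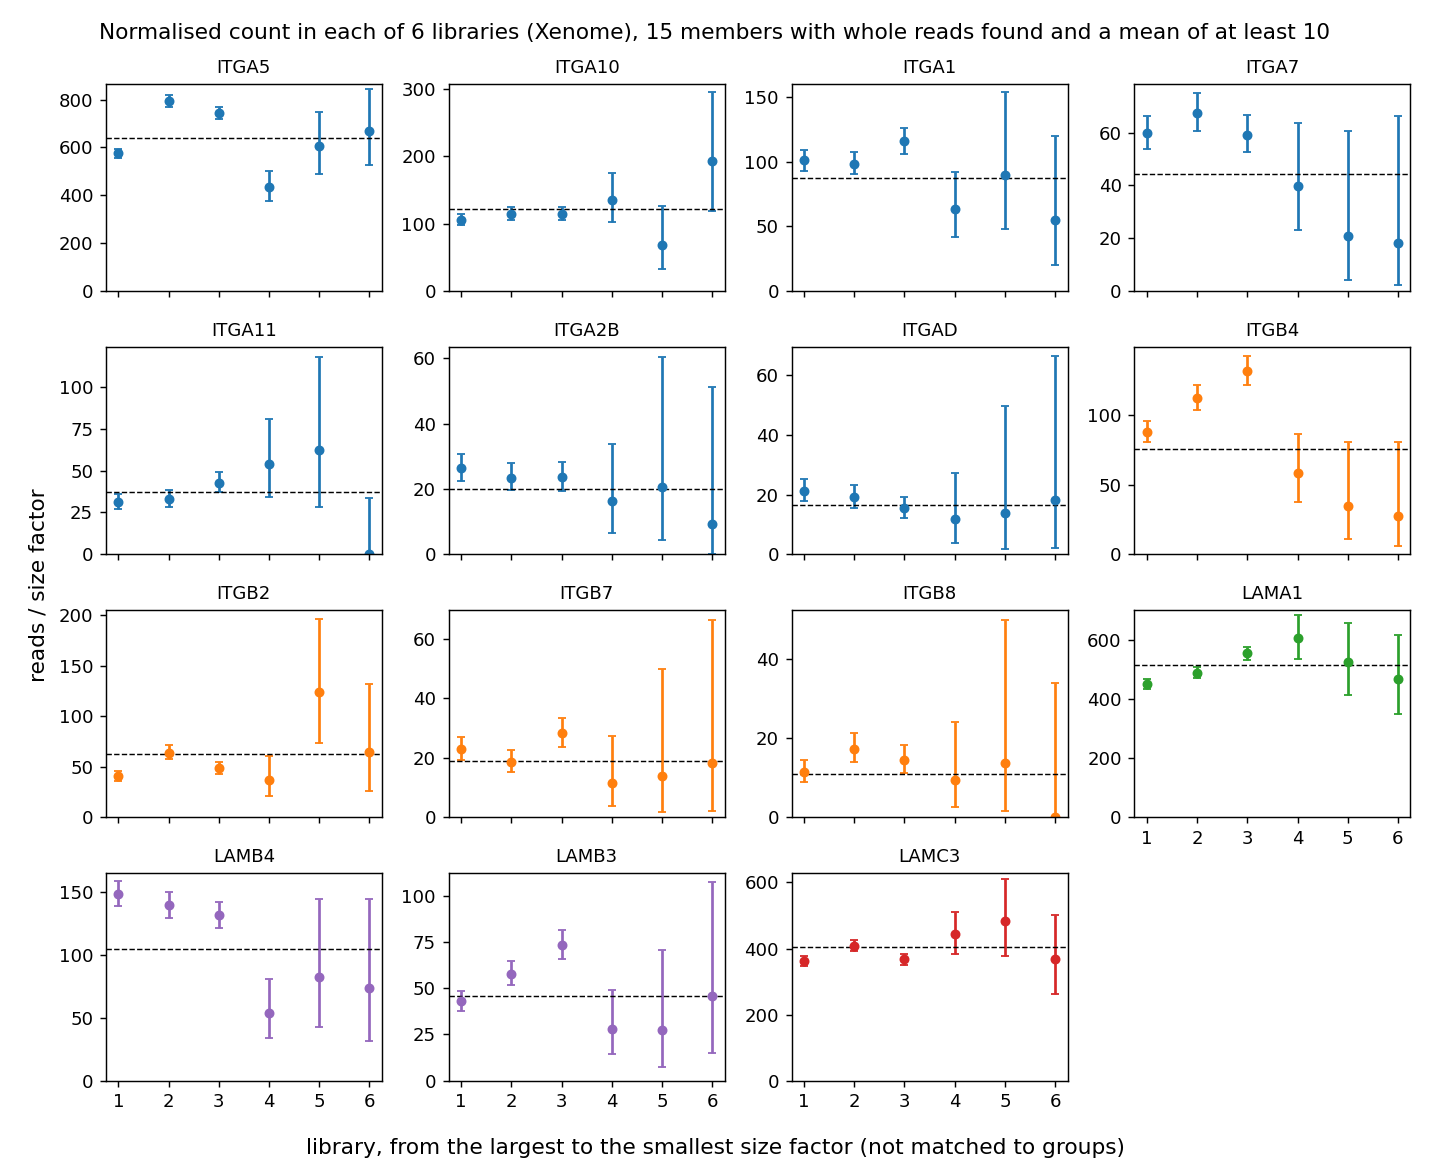
Normalised count (reads divided by the size factor, Xenome, vertical) of 15 members in libraries 1 to 6 (horizontal, from the largest to the smallest size factor, not matched to culture conditions), with exact 95% Poisson intervals and a dashed line at the authors' mean of the gene. The highest and lowest libraries differ 1.34-fold in LAMA1 and in LAMC3, the 3 deep libraries lie above the mean in ITGB4, LAMB4, ITGA7, ITGA1, ITGA2B and ITGB8, and intervals widen in libraries 5 and 6.

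The members below detection were seen mainly in the deep libraries. LAMA4 had 42, 37, 24, 6, 1 and 1 reads and ITGA9 had 48, 49, 46, 2, 0 and 0. ITGA4 had 21, 31, 36, 2, 0 and 0 reads, and ITGA8 had 13, 23, 26, 1, 0 and 1. At this depth a shallow library at the same level would be likely to hold 0 or few reads, so a difference from the deep libraries was not detectable.

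ITGAL had 19, 16, 13, 1, 3 and 0 reads, and its 3 reads in library 5 (normalised 20.7, interval 4.27 to 60.6) added more to its mean of 5.33 than all its reads of libraries 1 to 3. ITGAM had 8, 7, 16, 1, 0 and 1 reads, ITGB6 had 11, 11, 8, 1, 1 and 0 and LAMA2 had 15, 10, 7, 0, 0 and 0. ITGB3 had 4, 5, 15, 0, 0 and 0 reads with Xenome and 4, 3, 15, 0, 0 and 0 with XenofilteR. ITGAX had 2 reads in all, both in library 2. Kallisto means could not be worked back to reads, so the libraries behind the 29.4 of ITGB3 and the 51.2 of ITGAX are not known.

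Reads were not found for 12 members: ITGB1, LAMC1, LAMA3, ITGAV, LAMA5, ITGA6, ITGB5, ITGA2, LAMB1, ITGAE, LAMB2 and ITGA3. Their Xenome means ran from 322 (ITGA3) to 20174 (ITGB1). The mean of ITGA3 lay within the range searched (up to 650), below those of the solved LAMC3 (405), LAMA1 (515) and ITGA5 (638). Of the values used here, only the means over both conditions are available for these 12 members.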

How the data were processed

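The members and gene lists were chosen with earlier results of these data known. Stranded mRNA libraries of C4-2B alone and of the co-culture (3 libraries each) were processed by the authors with each pipeline. Xenome kept the human reads, which were then aligned with HISAT2 to GRCh38. For XenofilteR, HISAT2 alignments to GRCh38 and to GRCm38 came first, and mouse reads were then removed. Both were counted with featureCounts. Kallisto quantified the reads on joined human and mouse transcriptomes. The value used here, deposited by the authors for each pipeline, is the mean over 6 libraries of counts divided by the authors' DESeq2 size factors. The table also holds the authors' log2 fold changes, standard errors, Wald statistics, p-values and adjusted p-values of co-culture against C4-2B alone, which were not used. It has 41734 rows, and 21 rows that repeat a gene were dropped.

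Named genes are all members detected, those past 2-fold between pipelines with a mean of at least 10 in either, and those with whole reads found and at least 3 reads; ITGAX was named under the second part. A member that passed detection enters the counts, but its own values are not reported here. Of the fixed lists (adhesion adaptors, laminin partners, prostate cancer cell and osteoblast markers) counts and the highest and lowest gene are given.

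Whole reads were found by exhaustive search up to a mean of 90, and by a search of Xenome and XenofilteR at once up to a mean of 650, from means written with 15 digits. The second search looked only around equal normalised counts in the 6 libraries and nearly equal reads in the 2 pipelines. Genes far from these conditions can be left unsolved. The search was tested on simulated data, with spreads between libraries and pipelines that lie within those it assumes. There 78 of 100 genes with means of 330 to 650 were solved, all of them correctly. Wider spreads were not simulated. Exons, lengths and transcripts were those of GENCODE 44 (GRCh38) and M21, matched to 19874 of 19939 coding genes; the annotation release of the authors is not given in the sources used here. Depth per library ranged from about 4.61 to 251 M human reads (Xenome). Scripts used python 3.11.15, numpy 2.4.6 and pandas 2.3.3. Alternatives were other minimum means, each pipeline on its own, other folds, no scaling and wider search tolerance.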

Additional observations from a re-analysis of the deposited data

How the results depend on the processing

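Of 38 members, 28 counted as detected at a mean of 10 in at least 2 pipelines, 35 at a minimum of 1, 20 at a minimum of 50, 34 with Kallisto on its own, and 28 with Xenome, with XenofilteR or in all 3 pipelines. The 10 highest members per kilobase were the same genes with each pipeline on its own, and 9 of the 10 remained with the canonical transcript length, an alternative added after the data were seen. The count of 3 members at least 2-fold higher with Kallisto was the same without scaling and at a fold of 1.5, was 9 with no filter on low means and also 9 with a mean of at least 10 in either pipeline (added after the data were seen), and was 0 with a mean of at least 50 in both. Fewer genes enter at the higher minimum, and of the 3 members none has a Xenome mean of 50. Whole reads were found for 21 members with Xenome alone, 20 with XenofilteR alone or with a tolerance 10 times wider, and 26 with both pipelines at once (added after the data were seen). Depth limits the values of libraries 4 to 6, in which 1 to 3 reads can set a normalised count. Leaving out each library in turn (added after the data were seen), 14 to 16 of the 16 members with whole reads found kept a mean of at least 10. ITGB8 was at 9.81 without library 2. Among members under 10, the mean of ITGAL was 2.25 without library 5, ITGB6 1.58 without library 5, ITGAM 1.66 without library 6, ITGB3 0.323 without library 3, and ITGAX had 0 reads without library 2. No paired analysis was possible because the libraries behind the means carry no replicate number.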
